A study of Mus musculus with 15 samples.

Results

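Gm20594, Bc1, Rpph1, Rmrp, Rn45s, Terc and Rn7sk are 7 genes of short or ribosomal RNAs that were measured in mouse thalamus by RNA sequencing. They were chosen from these data, either because their rows took much of the abundance of the listed genes or because they differed between cocaine and saline libraries. Their shares and their differences by treatment are therefore given as a description, with no test. Of the 7 genes, 6 had a row among the 25080 genes listed in each table, and Rn7sk had none, so its level was not analysed here. Abundance was measured in TPM (transcript abundance scaled to a fixed library total), which is corrected for transcript length and lets libraries of different depth be set side by side. The listed genes did not sum to a whole library, but to between 312659 and 377401 TPM.

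The study asked how repeated cocaine alters gene expression in the thalamus with and without Maged1, a gene of the MAGE family. In Maged1-cKO mice, Cre driven by the vGluT2 promoter deletes a floxed Maged1 in glutamatergic neurons that use this transporter, so other cell types keep the gene. Control mice are titled wild type in the labels, and their genotype tag names the loxP allele. All mice were 2 to 4 months old and received saline for 3 days, then cocaine at 20 mg/kg into the peritoneum or saline for 5 days. The 14 libraries were titled control saline (n = 4), cKO saline (n = 4), control cocaine (n = 4) and cKO cocaine (n = 2). RNA was depleted of ribosomal RNA before strand-specific libraries were made, and paired reads of 100 bases were sequenced. The labels describe the unsorted samples as independent, and depth cannot be read from TPM.

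The labels bear on every comparison of genotypes. Maged1 itself was at 163.5 to 188.6 TPM in control saline and at 69.2 to 89.4 TPM in cKO saline, whereas cocaine libraries held 49.7 to 76.7 TPM under the control label and 140.4 and 144.3 TPM under the cKO label. The cocaine libraries thus went against their genotype labels and are named by label throughout. For 4 of the 8 saline libraries, the genotype tag named the other genotype than the title, which was used here. Markers of the dissected tissue were present in each library, with Slc17a6, the vGluT2 gene, at 59.5 to 119.9 TPM. Markers of the neighbouring hypothalamus, summed over 4 genes, ranged from 136.9 to 506.1 TPM in control saline and from 6.39 to 160.2 TPM in cKO saline. After cocaine they ranged from 0.593 to 108.3 TPM under the control label and were at 25.9 and 53.8 TPM under the cKO label. Their part in the results was not tested.

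These RNAs do not share one function. Bc1 RNA is transcribed by RNA polymerase III from promoter elements inside the gene, is carried into the dendrites of neurons and represses the start of translation. Rpph1 is the RNA subunit of RNase P, which trims the leader of precursor transfer RNAs, and Rmrp is the RNA of RNase MRP, which cuts precursor ribosomal RNA. Rn45s is the precursor of the cytoplasmic ribosomal RNAs, made by RNA polymerase I. Terc is the template RNA of telomerase, and Rn7sk RNA holds the elongation kinase P-TEFb in an inactive particle. Gm20594 stands apart, since the annotation used here (GENCODE M21) gives it as a protein coding gene and not as a noncoding RNA.

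Gm20594 is a single exon of 449 bases on the plus strand at chr6:79817916-79818364 of GRCm38, with a coding part of 37 codons at its end and untranslated sequence before it. RefSeq gives Mtrnr2l as its other name. Of its transcript, 96.2% aligned to mt-Rnr2, the RNA of the large mitochondrial ribosomal subunit, with 88.5% identity over 435 aligned columns. The longest identical run was 65 bases. Over windows of 100 bases, the length of a read, between 76 and 96 positions were identical. A stretch of the coding part is shown beside the mitochondrial sequence because the closeness of the pair bears on what the row of Gm20594 counts. Capitals mark the 4 of 97 aligned bases that differ, at chr6:79818251-79818347 and chrM:2070-2166, both on the plus strand.
Gm20594: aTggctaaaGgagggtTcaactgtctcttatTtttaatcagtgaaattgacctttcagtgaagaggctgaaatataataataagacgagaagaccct
mt-Rnr2: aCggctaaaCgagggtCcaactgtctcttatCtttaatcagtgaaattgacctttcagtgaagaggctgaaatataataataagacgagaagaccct
No mitochondrial gene was among the listed rows, so the level of mt-Rnr2 was not analysed here. How many reads of Gm20594 came from mitochondrial RNA was not tested.

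Bc1 lies on the plus strand at chr7:144914470-144914637 (GRCm38), between genes, 463 bases from its nearest neighbour, LTO1. Its annotated transcript has 168 bases, and 154 in RefSeq. It is printed whole because its internal promoter and its run of A bases are what mark the gene. Capitals mark the A box (bases 14 to 24) and the B box (GTTCGNNNC, bases 58 to 66) of RNA polymerase III genes.
Bc1: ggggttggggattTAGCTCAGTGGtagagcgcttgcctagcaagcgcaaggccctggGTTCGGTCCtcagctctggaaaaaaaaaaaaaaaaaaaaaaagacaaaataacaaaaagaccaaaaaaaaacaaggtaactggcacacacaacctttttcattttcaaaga
Of 6480 annotated transcripts of 100 to 300 bases, 1.07% held the A box on either strand, 1.70% held the B box and 0.0617% held both. Among 32851 RefSeq promoters the shares were 1.24%, 4.51% and 0.0457%. The annotated transcripts of Gm20594, Rpph1, Rmrp, Terc and Rn7sk held neither motif, which says only that these letters are not in them. A run of 23 A bases spans bases 77 to 99. Stretches of at least 50 bases with at least 90% identity to Bc1 were found in transcripts of 40 other genes, 0 of them over 80% of its length. Reads from such copies could not be told apart from Bc1 with the values used here.

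The other genes have neighbours that may share reads. Rpph1 (319 bases, minus strand) lies at chr14:50807449-50807767 and overlaps an exon of Ccnb1ip1, on the same strand, over 233 bases. Rmrp (281 bases, minus strand) lies at chr4:43492783-43493063, and 124 of its bases overlap an exon of Ccdc107 on the opposite strand. Terc (423 bases, minus strand) lies at chr3:96414437-96414859 and had no such copy. Rn45s was not in the annotation used here, so no position or length is given for it.

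The 6 listed RNAs together took 18.9% to 21.6% of the listed TPM in the 8 saline libraries and 36.02% to 41.6% in the 6 cocaine libraries. On average, cocaine libraries held 39146 TPM more Gm20594 and 30372 TPM more Bc1 than saline libraries. Rpph1 differed by -4237 TPM, Rn45s by -1266 and Rmrp by 693.7, and all other listed genes together by -52104 TPM. The higher share was thus carried by Gm20594 and Bc1. In bulk tissue, a change in the number of cells of a type cannot be told apart from a change in the RNA per cell.

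**Figure D1:**
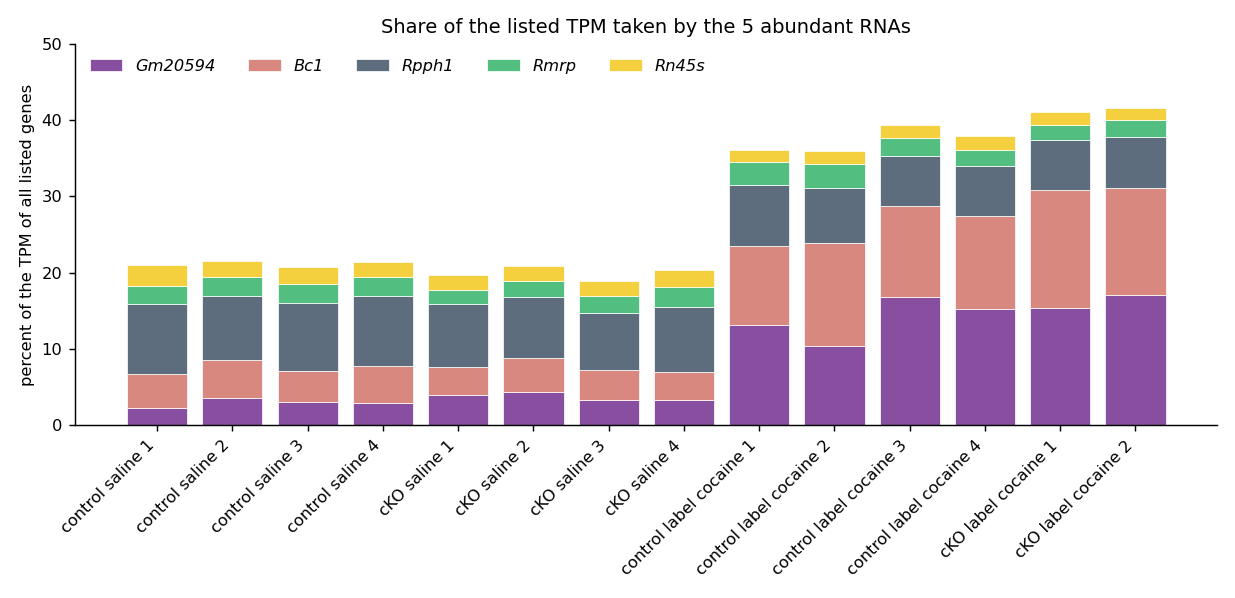
Share of the listed TPM taken by Gm20594, Bc1, Rpph1, Rmrp and Rn45s in each of the 14 libraries, as stacked bars in percent. The bars end between 18.9% and 21.6% in the saline libraries and between 36.02% and 41.6% in the cocaine libraries, with the gain in the segments of Gm20594 and Bc1.

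Gm20594 was at 7326, 11890, 9891 and 9429 TPM in control saline and at 13130, 14514, 11294 and 10355 TPM in cKO saline. After cocaine it was at 41867, 34892, 54972 and 53246 TPM under the control label, and at 57818 and 57954 TPM under the cKO label. Every cocaine library thus lay above every saline library, and the lowest was replicate 2 of the control label. Its share of the listed TPM was 2.29% to 4.38% after saline and 10.4% to 17.1% after cocaine. It ranked between the second and the fifth of all listed genes in saline libraries, and first or second in cocaine libraries.

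Bc1 was also higher after cocaine. It was at 14087, 16686, 13250 and 15648 TPM in control saline and at 12669, 14820, 13965 and 11265 TPM in cKO saline. After cocaine it was at 32581, 45239, 39159 and 43072 TPM under the control label and at 58664 and 47810 TPM under the cKO label. All 6 cocaine libraries were again above all 8 saline libraries, and both libraries labelled cKO were above all 4 labelled control. Its share was 3.60% to 5.00% after saline and 10.3% to 15.5% after cocaine.

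Rpph1 was the most abundant listed gene in all 8 saline libraries and the third in all 6 cocaine libraries. It was at 29424, 27805, 29159 and 29458 TPM in control saline, and at 27497, 26272, 26057 and 26974 TPM in cKO saline. It was at 25678, 24185, 21703 and 22983 TPM under the control label after cocaine and at 24633 and 22382 TPM under the cKO label. In TPM as deposited, every cocaine library was thus below every saline library.

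Rmrp was the fourth most abundant listed gene in each of the 14 libraries. It was at 6519 to 8580 TPM after saline, with a median of 7741, and at 7295 to 10363 TPM after cocaine, with a median of 7672. The groups overlapped, and only replicates 1 and 2 of the control label, at 9394 and 10363 TPM, lay above the saline range. Rn45s was at 6191 to 8824 TPM after saline (median 7019) and at 5120 to 6278 TPM after cocaine (median 5893), again with overlap.

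Terc was the scarce member, at 2.92 to 6.88 TPM after saline and 1.61 to 4.08 TPM after cocaine, and it ranked between 7436 and 11424 among the listed genes. Replicates 1 and 2 of the control label after cocaine held 1.61 and 1.84 TPM, and replicates 3 and 4 held 4.08 and 3.83. The same pairs of libraries lay apart for Gm20594 and Rmrp, and for the small nuclear RNA Rnu12, which was at 141.2 and 232.3 TPM in the former pair and at 52.7 and 57.8 in the latter. The labels give no batch for these libraries, and the part of this difference in the results was not tested.

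**Figure D2:**
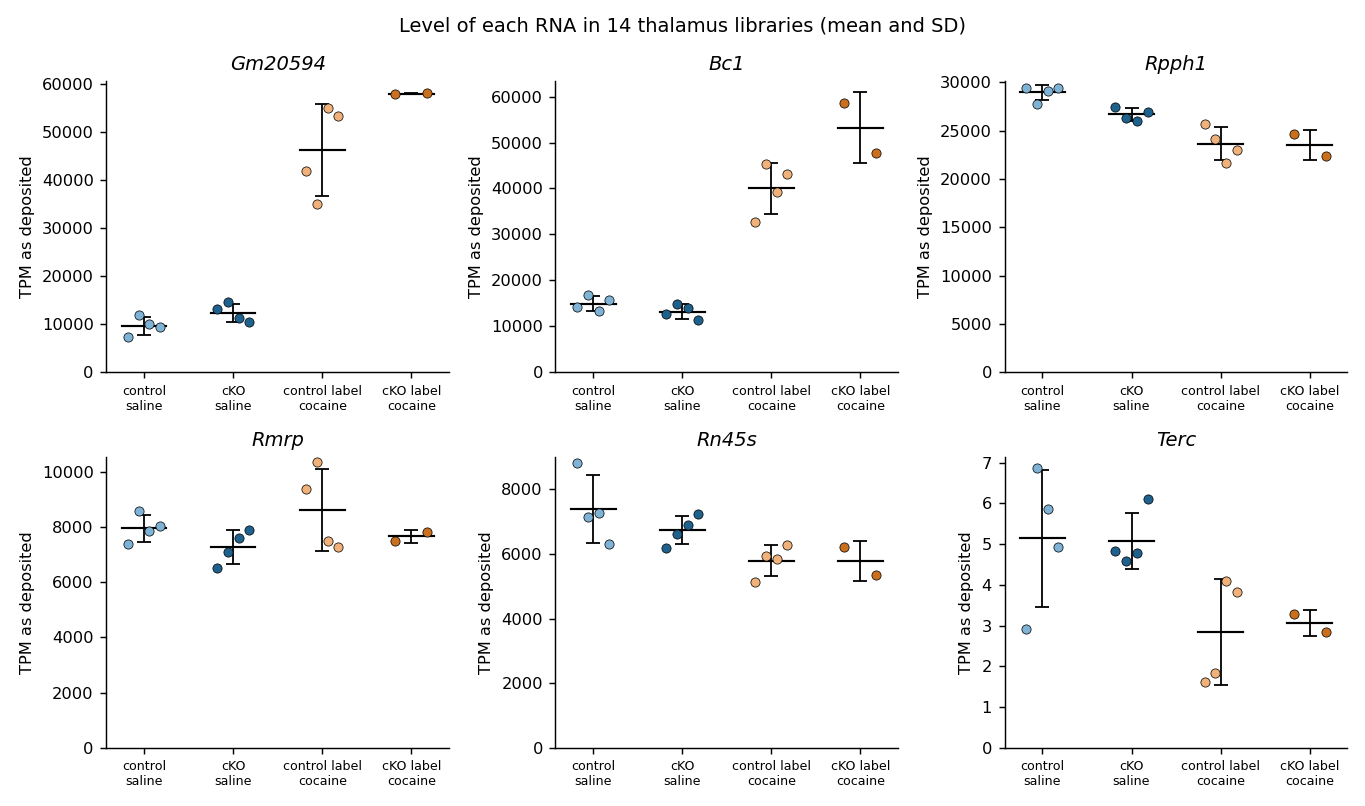
TPM as deposited of each RNA (vertical axes, each from 0) in the 4 groups, with 1 point per library and the mean and SD as lines. The cocaine points lie above the saline points for Gm20594 and Bc1 and below them for Rpph1, and the groups overlap for Rmrp, Rn45s and Terc.

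The difference by treatment of each RNA depended on how libraries were scaled. In TPM as deposited, the listed genes other than these 6 summed to a mean of 261173 after saline and 209069 after cocaine. The TPM outside the listed genes had means of 671285 and 658681. The part of Gm20594 and Bc1 in this dependence on scaling and in these sums was not tested. Each library was divided by its trimmed mean (TMM) factor, which ranged from 0.807 to 0.939 in cocaine libraries and from 1.07 to 1.22 in saline libraries. With this scaling the median gene was 0.0076 higher after cocaine on the log2 scale, against 0.34 lower (-0.34) for the genes other than these 6 in TPM as deposited. All fold changes below are on the log2(scaled TPM + 0.5) scale unless stated, and they average the differences under both genotype labels.

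On the TMM scale, Gm20594 was higher after cocaine by a log2 difference of 2.64 (SE 0.14, or 6.21-fold). In TPM as deposited the difference of Gm20594 was 2.25. Bc1 was higher by 2.10 (SE 0.09, or 4.28-fold), and by 1.72 in TPM as deposited. Both were higher with each scaling, although the difference of Bc1 was only 0.33 after quantile normalization, which sets values by rank and so compresses the most abundant genes.

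Rmrp was 0.47 higher (SE 0.09), with no overlap of the treatments after TMM scaling, but 0.09 higher with overlap in TPM as deposited. Rpph1 was 0.14 higher (SE 0.06) with TMM factors and 0.24 lower (-0.24) in TPM as deposited. Rn45s likewise was 0.10 higher (SE 0.08) with TMM factors and 0.28 lower (-0.28) in TPM as deposited. No direction can be given for Rpph1 or Rn45s that holds under both. Terc was 0.38 lower (-0.38, SE 0.22) with TMM factors and 0.71 lower (-0.71) in TPM as deposited, and its libraries overlapped in each case.

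As background, after TMM scaling 5.95% of the 13471 tested genes (at least 1 TPM in at least 3 libraries) had each of the 6 cocaine libraries above each of the 8 saline libraries, as Gm20594, Bc1 and Rmrp did. A further 5% had them all below, as none of the 6 did. In TPM as deposited the shares were 0.156% above, where Gm20594 and Bc1 were among 21 genes, and 43.2% below, where Rpph1 was. The genes were chosen partly on this contrast, so nothing is read from these counts.

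**Figure D3:**
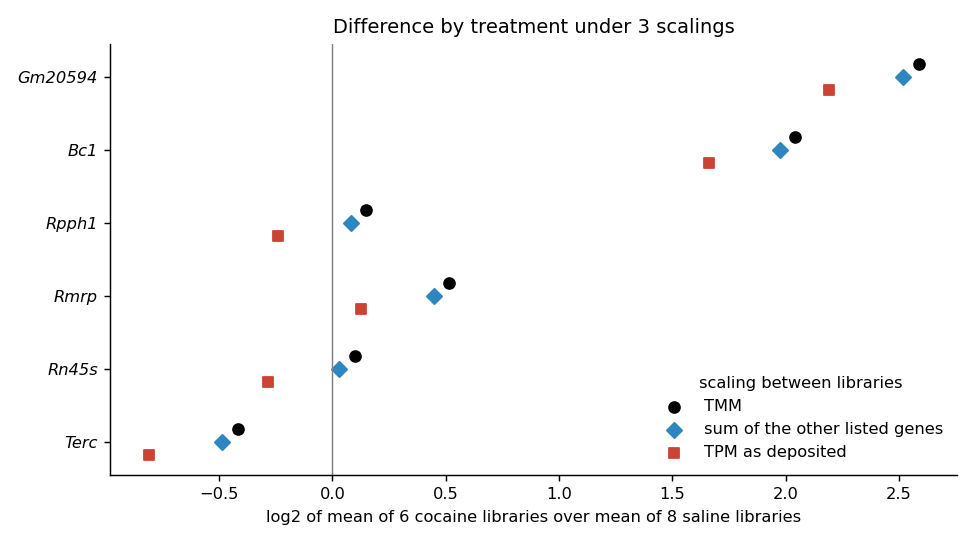
Difference by treatment (horizontal axis, log2 of the mean of 6 cocaine libraries over the mean of 8 saline libraries) for each RNA under 3 scalings. Gm20594 and Bc1 lie far to the right under all 3, whereas Rpph1 and Rn45s lie left of 0 in TPM as deposited and right of it with the other scalings.

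Within the control label, the TMM-scaled difference between cocaine and saline was 2.63 for Gm20594 and 1.79 for Bc1. Within the cKO label it was 2.64 for Gm20594 and 2.41 for Bc1. The test of the difference between the labels, which the choice of genes did not use, gave 0.01 for Gm20594 (SE 0.28, 95% interval -0.59 to 0.60, adjusted p = 0.994, limma). For Bc1 it gave 0.62 (SE 0.17, 95% interval 0.24 to 0.99, adjusted p = 0.0880, limma over all 13471 genes), which did not pass. It passed only with genes filtered at a mean of 5 TPM, at an adjusted p of 0.0496 (limma), against 0.0641 to 0.910 with the other alternatives. The values within each label and this test rest on the genotype labels of the cocaine libraries, which Maged1 went against. None of the alternatives exchanged those labels. None of the 6 RNAs was called in this interaction, against 0.802% of tested genes. A call needed a Benjamini-Hochberg adjusted p under 0.05 and an absolute log2 difference of at least 0.5.

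Genotype was compared within each treatment, to ask whether loss of Maged1 alters the level of these RNAs. After saline, none of the 6 was called, and on the TMM scale their libraries overlapped in each case, whereas 0.052% of tested genes were called and 12.6% had no overlap. In TPM as deposited, Rpph1 alone did not overlap, with its 4 cKO libraries below its 4 control libraries, and 10.4% of tested genes had no overlap on that scale. The log2 differences of cKO from control were 0.31 for Gm20594 (95% interval -0.07 to 0.69), -0.23 for Bc1 (-0.47 to 0.0016) and -0.17 for Rpph1 (-0.33 to -0.01). The adjusted p-values of these 3 were 0.397, 0.299 and 0.277 (limma). Rmrp (-0.18), Rn45s (-0.18) and Terc (-0.02) were also not called, with adjusted p from 0.434 to 0.986 (limma). The interval for Terc ran from -0.61 to 0.58, so these p-values do not show equal levels.

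After cocaine, none of the 6 was called between the labels either, against 0.0371% of tested genes. Bc1 was 0.38 higher under the cKO label (95% interval 0.10 to 0.67, adjusted p = 0.309, limma), and its libraries did not overlap between the labels, which was so for 17.5% of tested genes in either direction. Gm20594 was 0.32 higher (95% interval -0.15 to 0.78, adjusted p = 0.604, limma). Rmrp was 0.19 lower (-0.19), and Rpph1 and Rn45s differed by -0.04 each. With 2 libraries under the cKO label, and with Maged1 going against both labels, the direction rests on the labels alone.

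The ratio of 2 RNAs within a library does not depend on scaling. The ratio of Gm20594 to Bc1 was 0.520 to 0.746 in control saline (mean 0.645 ± 0.104, SD, n = 4) and 0.809 to 1.04 in cKO saline (mean 0.936 ± 0.097, SD, n = 4), without overlap. It was 1.46-fold higher in cKO on average (two-sided exact permutation p = 0.0286, which no test of 4 against 4 can go below). The ratio was looked at after its values were seen. Over all 30 tests, of 15 pairs of RNAs in both treatments, the adjusted p was 0.50, and 0 tests passed. After cocaine the ratio was 0.771 to 1.40 under the control label and 0.986 and 1.21 under the cKO label.

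**Figure D4:**
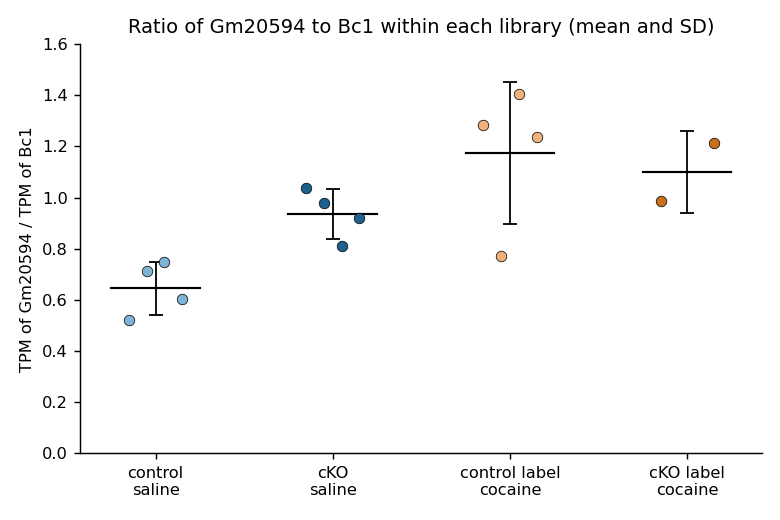
Ratio of the TPM of Gm20594 to that of Bc1 (vertical axis, from 0) in each library by group, with the mean and SD. Control saline libraries lie between 0.520 and 0.746, below the cKO saline libraries at 0.809 to 1.04, and cocaine libraries spread from 0.771 to 1.40.

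Whether the RNAs varied together was examined within the 8 saline and within the 6 cocaine libraries, on the TMM scale. Of 30 pairs, 0 passed adjustment by exact permutation tests for Pearson's r or for Spearman's rho. By Spearman's rho, 2 pairs had an unadjusted p under 0.05, Gm20594 with Rpph1 after saline (rho = -0.76, r = -0.64, exact permutation p = 0.0368 for rho and 0.0864 for r) and Rmrp with Terc after saline (rho = 0.74, r = 0.46, exact permutation p = 0.0458 for rho and 0.256 for r), both with an adjusted p of 0.583 for rho. Without the 2 libraries farthest from the median of the first gene, r was -0.36 and 0.59. By Pearson's r, 1 pair did, Rpph1 with Rn45s after cocaine, with r = -0.83 (exact permutation p = 0.0417, adjusted p = 0.288) and Spearman rho = -0.60 (exact permutation p = 0.242, adjusted p = 0.720, n = 6). Without the 2 libraries farthest from the median of Rpph1, r was -0.93.

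Across all 14 libraries, which differ by treatment, the genes with the pattern closest to Gm20594 were Thrap3 (r = 0.99), Mir666 (r = 0.99) and Edf1 (r = 0.98). Those closest to Bc1 were Atpif1 (r = 0.99), Dhx38 (r = 0.98) and Rn4.5s (r = 0.98). These r describe likeness of pattern and not of size: the log2 difference between cocaine and saline was 0.27 for Thrap3 and 6.03 for Mir666, a microRNA gene at 1.39 to 3.21 TPM after saline and 93.7 to 170.5 TPM after cocaine. Rn4.5s, another short RNA, went from between 123.5 and 229.4 TPM to between 840.3 and 1527 TPM. The closest genes were Cyhr1, Zfp219 and 1190005I06Rik for Rpph1 (r = 0.90 each), and Lrfn3 (0.94), Snora78 (0.92) and Rfxap (0.91) for Rmrp. They were Aldh2 (0.93), Fkbp8 and Ccdc85b (0.89 and 0.88) for Rn45s, and Tpmt, Ube2e2 and Insig1 (0.82, 0.81 and 0.81) for Terc. Since the libraries differ by treatment, no p-value is given for these r.

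Genes for proteins that work with these RNAs were examined in the same libraries, in 7 lists with 91 tested genes. Only their transcripts were measured, and not the proteins. Of these, 35 (38.5%) had an adjusted p under 0.05 between cocaine and saline (limma), near the 33.1% of all tested genes, and 1 also reached the fold change minimum. Of all tested genes, 1.05% were called higher and 1.02% lower, with a median log2 difference of 0.0076, so the lists are described by their values alone. Of the 11 genes for proteins of RNase P and RNase MRP, 0 were called (median 0.06, range -0.19 to 0.30). Rpp21, the most abundant of them, was at 0.30 (SE 0.09, adjusted p = 0.0198, limma), below the fold change minimum.

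Of 10 genes for proteins that bind BC1 RNA, 0 were called (median -0.0023, range -0.36 to 0.22). Eif4a2, a helicase of translation initiation, differed by -0.34 (SE 0.03, adjusted p = 7.45e-06, limma), and its relative Eif4a1 by -0.0016 (adjusted p = 0.978, limma). Purb, a nucleic acid binding protein found on BC1 RNA in dendrites, differed by -0.29 (adjusted p = 0.000127, limma), and Hnrnpa2b1, a carrier of dendritic RNAs, by 0.22 (adjusted p = 0.000418, limma). These differences are past the p-value threshold but not the fold change minimum.

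Of 6 tested genes for telomerase proteins, 1 rose, Gar1, for a protein of the H/ACA particles (0.60, SE 0.06, adjusted p = 2.42e-05, limma), and 0 fell (median 0.09). The catalytic subunit Tert, with a mean of 0.548 TPM, did not pass the filter. Of 31 genes of the RNA polymerase III machinery, 0 were called (median 0.05, range -0.30 to 0.29), and Maf1, its repressor, was at -0.09 (adjusted p = 0.106, limma). Of 13 genes of the RNA polymerase I machinery, 0 were called (median 0.13, range -0.19 to 0.45), and of 13 genes for factors of ribosomal RNA processing also 0 (median 0.10, range -0.20 to 0.27). In the RNA polymerase III, RNA polymerase I and processing lists, 13, 5 and 6 genes had an adjusted p under 0.05 (limma). These were 41.9%, 38.5% and 46.2% of each list, against 33.1% of all tested genes. The 7 genes for proteins of the Rn7sk particle, whose RNA has no row, and of P-TEFb had 0 calls (median 0.10, range -0.11 to 0.21). In none of these 7 lists was a gene called between genotypes after saline, between labels after cocaine, or in the interaction.

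Other short RNAs went in both directions. Of 10 listed small nuclear, vault and RNase P-like RNAs, 5 passed the filter, of which 1 rose and 2 fell. Rnu11, of the minor spliceosome, rose by 2.17 (SE 0.40, adjusted p = 0.0013, limma), but its treatments overlapped. Control saline replicate 1 held 64.1 TPM of Rnu11, and replicates 1 and 4 of the control label after cocaine held 48.5 and 59.5 TPM. With TMM scaling, that saline library (60.1) was still above replicate 1 of the control label after cocaine (57.2). Rnu6, of the major spliceosome, fell by 0.82 (SE 0.14, adjusted p = 0.000703, limma). In TPM as deposited it went from between 1283 and 2211 TPM to between 508 and 1008 TPM. With TMM scaling its treatments overlapped, since replicate 2 of the control label after cocaine (Rnu6 at 1152) was above cKO saline replicate 2 (1131). Rnu3a, which guides ribosomal RNA processing, fell by 1.07 (SE 0.33, adjusted p = 0.0233, limma), but not in each library. Replicates 1 and 2 of the control label held 76.3 and 66.7 TPM, within the saline range of 58.7 to 88.3 TPM as deposited, and with TMM scaling they were above all saline libraries (Rnu3a at 89.9 and 76.3 against 51.8 to 75.7). Of 6 long noncoding RNAs, including Malat1 and Meg3, 0 were called (median -0.12).

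Of 8 genes named for overlap with ribosomal RNA sequence, only Lars2, the mitochondrial leucyl-tRNA synthetase, had a row. It rose by 2.42 (SE 0.39, adjusted p = 0.000579, limma). It was at 4.82 to 6.01 TPM in the 8 saline libraries, and at 4.73, 25.6, 26.4 and 36.9 TPM under the control label and 17.6 and 48.3 TPM under the cKO label after cocaine. Replicate 1 of the control label lay below the saline libraries in TPM as deposited and above them with TMM scaling (Lars2 at 5.57 against 4.31 to 5.04), while the other 5 cocaine libraries lay above them on both scales.

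The size of the difference by treatment also went with transcript length, which was known for 97.9% of tested genes. The median absolute log2 difference was 1.11 over the 206 other genes with transcripts under 200 bases, and 0.11 over the 7736 with 3000 bases or more. Among the short ones, 8.74% were called higher and 9.71% lower, so short genes went both ways. Gm20594, at 449 bases, was in the class of 300 to under 500 bases, where the other 54 genes had a median absolute difference of 0.23 and 1 was called higher and 7 lower. Length and RNA class cannot be told apart here, since most short transcripts are noncoding RNAs. An absolute difference also grows with the spread among libraries of a group, and the part of that spread was not tested.

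**Figure D5:**
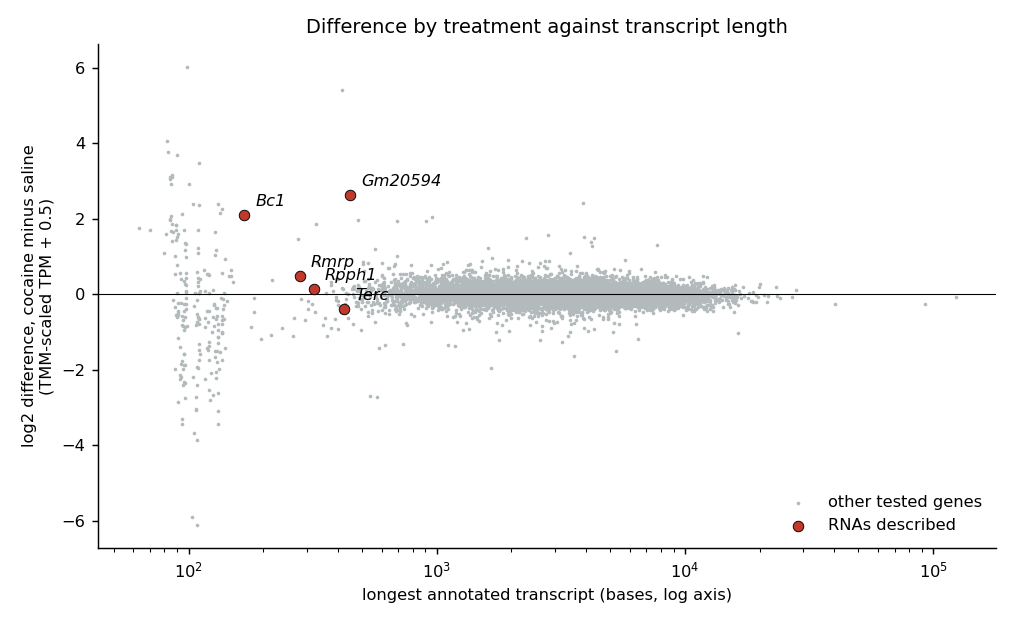
Log2 difference between cocaine and saline (vertical axis, TMM-scaled TPM + 0.5) against the longest annotated transcript in bases (log axis), with the 5 RNAs of known length in red and other tested genes in grey. Differences spread widely below 200 bases, with a median size of 1.11, and Bc1 and Gm20594 lie at 2.10 and 2.64.

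Among markers of cell types, those of the hypothalamus and choroid plexus had the largest median differences between cocaine and saline. The median log2 differences were -2.06 for 4 hypothalamic and -0.87 for 2 tested choroid plexus markers, against 0.14 for 4 neuronal, 0.30 for 4 thalamic, -0.07 for 4 astrocyte, 0.08 for 4 oligodendrocyte, 0.06 for 4 microglial and 0.03 for 3 endothelial markers. The choroid plexus markers tested were Ttr (-1.37, SE 1.04) and Clic6 (-0.37, SE 0.37). Summed over 4 genes, choroid plexus markers ranged from 15.1 to 1545 TPM within control saline alone. The hypothalamic markers Pmch (-0.77, SE 1.35) and Hcrt (-1.42, SE 1.37) also had wide errors. Only Oxt and Avp, hormones of the hypothalamus, were called, at -2.69 (adjusted p = 0.00486, limma) and -2.73 (adjusted p = 0.0016, limma) averaged over both labels.

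These averages joined unlike differences. Oxt was at 95.99 to 203.5 TPM in control saline and at 0 to 0.188 TPM under the control label after cocaine, but at 0.62 to 29.6 TPM in cKO saline and at 8.27 and 42.6 TPM under the cKO label after cocaine. The interaction was called for Oxt (10.41, SE 1.22, adjusted p = 0.00303, limma) and for Avp (4.69, SE 1.03, adjusted p = 0.0479, limma). Both interactions rest on the genotype labels of the cocaine libraries, which Maged1 went against. The part of these markers in the results was not tested.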

How the data were processed

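RNA of whole thalamus was sequenced in 14 libraries with a table, and 1 sample had none and was not analysed here. The authors aligned reads with STAR 2.5.3a to GRCm38 and estimated TPM with Salmon, and deposited TPM per gene, 2 of the tables with a decimal comma. TPM is set within a library, so a gain of abundant RNAs can lower others, and rRNA depletion acts on some of them. The members and lists were chosen with earlier results of these data known.

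Values were divided by TMM factors (30% of log ratios and 5% of levels trimmed on each side). log2(scaled TPM + 0.5) of 13471 genes that reached 1 TPM in 3 or more libraries was fitted by limma 3.58.1 (R 4.3.3) with 4 group means and an intensity trend, as tested on simulated data. Groups came from sample titles. Calls needed a Benjamini-Hochberg adjusted p under 0.05 and a log2 difference of at least 0.5. Named were the members, the called or otherwise most abundant genes of each list (at most 4), the 3 genes of closest pattern, and Maged1. Rnu12, Tert and the TPM of Slc17a6 were added after their values were seen. Sequences came from GENCODE M21 and RefSeq, compared by BLAST 2.17.0. Same-numbered libraries did not deviate together (mean r -0.014 over 18 pairs, 1 over 0.1), so no pairing was used. Other scalings, pseudocounts, filters, genotype tags and left-out libraries were tried. Rn7sk, without a row, was not analysed here.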

Additional observations from a re-analysis of the deposited data

Results flagged for a closer look

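Terc in cKO saline replicate 4, at 6.10 TPM, lay apart from the other 3 libraries of its group, which were at 4.83, 4.59 and 4.78 TPM. It was the 1 such value in 24 checks, of each RNA, their share and the ratio of Gm20594 to Bc1 in the groups of 4 libraries, and chance gives about 1 in 20.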

How the results depend on the processing

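The higher levels of Gm20594 and Bc1 after cocaine kept their direction in all alternatives (log2 differences 1.08 to 2.72 and 0.33 to 2.41), while Rpph1 ranged from -1.25 to 0.21 and Rn45s from -0.28 to 0.17. RNAs without overlap between treatments numbered 3, but 1 after quantile normalization and 5 within the cKO label, where 10.9%, 10.9% and 43.8% of tested genes had none. Their share differed by 18.1 points of the listed TPM, and by 6.47 points of a whole library (17.5 to 18.6 with 1 library left out).

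Genes called between cocaine and saline numbered 279, against 2346 in TPM as deposited, 161 with a mean of at least 5 TPM, 423 within the cKO label, 4456 with no fold change minimum, and 249 to 351 with 1 library left out. Between genotypes after saline, 7 genes were called, against 3 as deposited, 14 with a mean of at least 5 TPM, 0 with genotype from the tag, 0 with libraries whose labels agree, 24 with no fold change minimum and 3 to 22 with 1 library left out (3 without control saline replicate 2 or cKO saline replicate 1 or 2, 22 without cKO saline replicate 3 or replicate 1 of the control label after cocaine). Between labels after cocaine, 5 were called, against 3 as deposited, 8 with a pseudocount of 0.1, 17 with no filter, 3 with a mean of at least 5 TPM, 2 by the tag, 10 with only the groups compared, 8 with no fold change minimum and 0 to 9 with 1 library left out (0 without replicate 2 of the cKO label, 9 without replicate 1 or 2 of the control label). In the interaction, 108 were called, against 17 as deposited, 1 by the tag, 4 with agreeing libraries, 173 with no fold change minimum and 25 to 212 with 1 library left out (25 without replicate 1 of the cKO label after cocaine, 212 without replicate 1 of the control label). Of the RNAs described, 1 was called there with a mean of at least 5 TPM (Bc1, 0.65, adjusted p = 0.0496, limma). The causes were not tested, and no alternative exchanged the genotype labels of the cocaine libraries.

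With the replicate number as a block, 293 genes were called between treatments, 7 and 2 between genotypes after saline and cocaine, and 27 in the interaction, with 0 of these RNAs (Bc1 0.60, adjusted p = 0.185, limma). The numbers did not pair the samples. Scaling to the other listed genes and the left-out libraries for the ratio of Gm20594 to Bc1 (log2 0.45 to 0.62) were chosen after seeing the data. TPM gives no depth, so counting error is unknown, and 2 libraries under the cKO label limit each cocaine comparison of genotypes.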
